A study of Mus musculus with 18 samples.

Results

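The genes described here are 10 genes of recruited monocytes and macrophages: the lectin receptors Clec4d and Clec4e, the receptors Trem1, Cd14, Itgam and Fcgr1, the secreted proteins Chil3 and F13a1, the enzyme Ch25h and the membrane glycoprotein Gpnmb. They were found by symbol on the whole mouse genome arrays, and all 10 were on the array and tested, of 24819 genes tested in all. The livers came from male C57BL/6 mice of 6 weeks that had gone 12 h without food. They received a single oral dose of saline (control), 270 mg/kg monocrotaline (MCT 270) or 330 mg/kg monocrotaline (MCT 330), and tissue was taken 48 h later, with 8 mice in each group. Monocrotaline is a plant alkaloid that the liver converts to a reactive pyrrole and that injures the sinusoidal endothelium. Liver RNA of the 3 groups was hybridised to 9 single-colour Agilent arrays, 3 per group. All mice were of 1 strain and sex and were sampled at 1 time point.

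When liver tissue is injured, chemokines such as Ccl2 draw monocytes from the blood, and these cells turn into macrophages beside the resident Kupffer cells. Recruited cells carry receptors that sense damage and microbes: Clec4e (Mincle) and Clec4d signal through the adaptor Fcer1g to the kinase Syk and the scaffold Card9, Trem1 signals through the adaptor Tyrobp, and Cd14 hands lipopolysaccharide to Tlr4 and Ly96. Itgam is the alpha chain of the integrin Mac-1, which binds Icam1 and fibrin, and Fcgr1 is the high-affinity receptor for IgG. In bulk liver RNA, a change in the number of such cells and a change in RNA per cell cannot be told apart.

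The 9 arrays held 5 distinguishable samples. Replicates 2 and 3 of the control group, replicates 2 and 3 of MCT 270 and all 3 replicates of MCT 330 differed, at the median of 3 brightness classes, by no more than repeated spots of a probe on 1 array, and each such set was averaged and counted as 1 sample, which gave 2 control samples, 2 MCT 270 samples and 1 MCT 330 sample. MCT 330 replicate 1 was the least certain of these joins: its difference from the other 2 arrays was 0.888 and 0.932 times the repeated-spot noise at that median but 1.14 and 1.15 times for dim spots. Its slide position also differed from theirs. Of 26037 spots, 101 and 110 differed from those 2 arrays by more than 1 on the log2 scale, against 2 to 8 in the other joined pairs. With this replicate as a sample of its own, 8 of the 10 genes were called at MCT 330 against control. The limma fit therefore takes the spread of the lone MCT 330 sample from the other groups, and an adjusted p measures only the spread between samples that the labels do not tie to separate mice. The MCT 330 arrays were in scans that held no other group, so scan and dose cannot be told apart there, while control and MCT 270 arrays shared scans. Between 64.0% and 80.9% of spots lay well above background per array, and the signal at the 75th percentile of an array was 498.2 to 703. None of the 10 hepatocyte markers was dim on all arrays of a group, and they had a summed level of 2098 and 2328 in the control samples, 2334 and 1783 in the MCT 270 samples and 1590 in the MCT 330 sample, where the 75th percentile of each array counts as 1. Levels are log2 processed signal minus the 75th percentile of the array, differences are log2 fold changes with the standard error (SE) of the fit, and a gene was called at a Benjamini-Hochberg adjusted p under 0.05. Levels of different probes are not comparable with each other, so a summed level follows mainly the brightest probes of its list.

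At MCT 330, 8 of the 10 genes were higher than in control livers (Ch25h, F13a1, Clec4d, Clec4e, Chil3, Gpnmb, Cd14 and Itgam), and Fcgr1 and Trem1 did not pass. Only in MCT 330 were the probes of Clec4e, F13a1 and Gpnmb well above background on all arrays. They thus passed the probe filter through the group where they were high, which favoured a higher call. Of all genes tested, 33.4% were called in this comparison, 9.48% higher and 23.9% lower. Of these calls 28.4% were higher, against 41.8% with quantile normalization and 48.4% with normexp correction. The median difference of the 10 genes was 3.85 (3.72 with the 4 genes dim on all control arrays at their lower bound), against -0.25 over all genes. With normexp, another way to treat background, the differences of the dim genes were smaller, at 2.78 for Clec4d, 2.14 for Clec4e, 2.37 for F13a1, 2.74 for Ch25h and 1.27 for Gpnmb, and all 5 still passed. All 10 genes were higher on every MCT 330 array than on every control array, as were 28.9% of all genes. At MCT 270 none of the 10 was called against control, with 0% of all genes called, and the median difference was 0.44. Their summed level was 3.10 and 2.49 in the control samples, 3.35 and 3.91 in the MCT 270 samples and 14.5 in the MCT 330 sample.

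**Figure D1:**
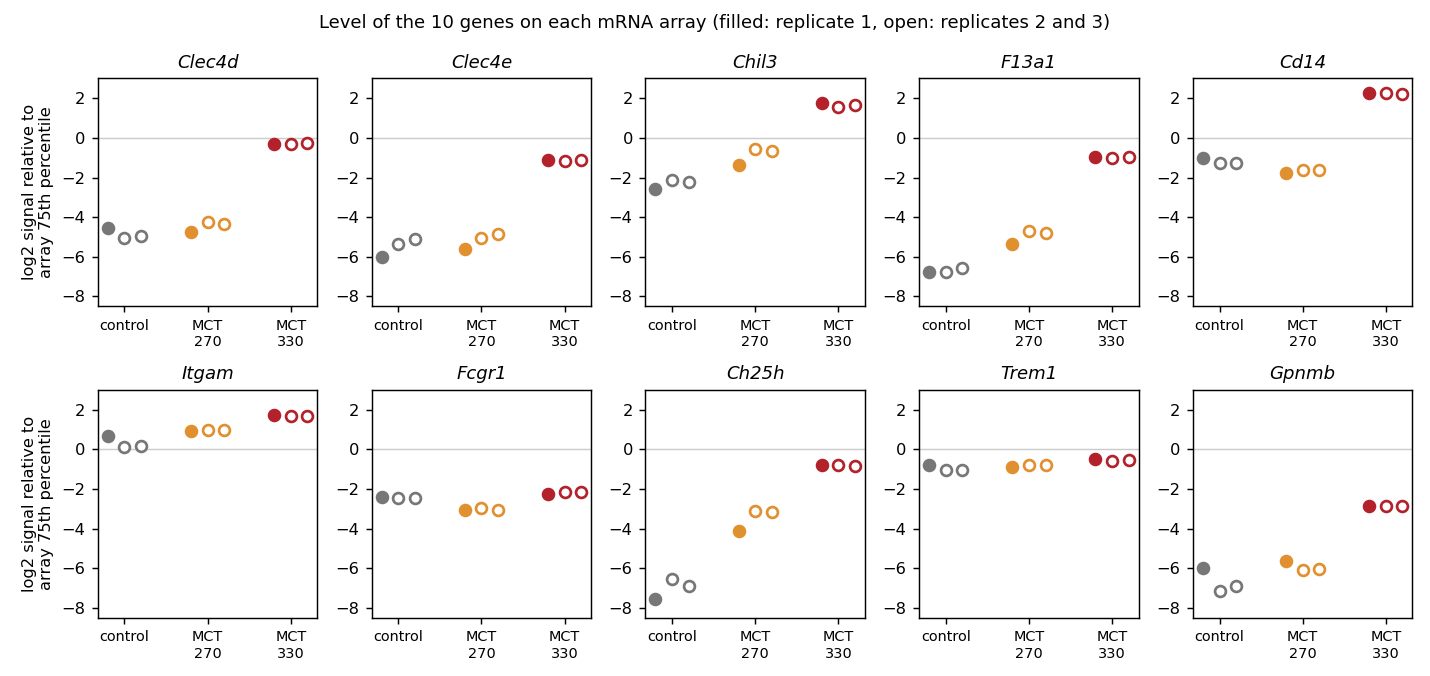
Log2 signal relative to the 75th percentile of the array (vertical axis) for each of the 10 genes, with 1 point per array in the control, MCT 270 and MCT 330 groups; filled points are replicate 1 and open points replicates 2 and 3. The MCT 330 points of Cd14 lie at 2.20 to 2.26, above all control points, while those of Trem1 and Fcgr1 lie close to the other groups.

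Clec4d and Clec4e, neighbouring lectin genes on chromosome 6, rose together at the higher dose. Clec4d, the lectin that pairs with Clec4e at the cell surface, had levels of -4.56, -5.07 and -4.97 on the 3 control arrays, -4.76, -4.26 and -4.36 on the 3 MCT 270 arrays and -0.30, -0.30 and -0.27 on the 3 MCT 330 arrays. The MCT 330 arrays lay far above the rest, and the control and MCT 270 arrays overlapped. The difference between MCT 330 and control was 4.50 ± 0.31 (SE, adjusted p = 0.00883 by limma), with only 1 of 3 control arrays well above background. Clec4e, a receptor for mycobacterial cord factor and for material from dying cells, had levels of -6.03, -5.35 and -5.08 on the 3 control arrays, -5.61, -5.04 and -4.85 on the 3 MCT 270 arrays and -1.11, -1.15 and -1.14 on the 3 MCT 330 arrays. The MCT 330 arrays were again the highest, and the other groups overlapped. It was not well above background on any control array, so its increase at MCT 330 is given as at least 18.8-fold (fitted difference 4.49 ± 0.46, adjusted p = 0.00883). For such dim genes the bound compares the bright group with the detection limit of each control array (its faintest signal well above background), or with the gene's own signal where that was higher. All such bounds hold only for the processed signal as scaled here. With normexp the Clec4e difference was 2.14, which is less than its bound. Normexp differences of F13a1, Ch25h, Gpnmb, Trem3, Ccl7, Stfa2l1, Mmp9 and Ms4a1 at MCT 330 were also less than their bounds.

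RefSeq start-site windows (GRCm38.p6, 250 bases before to 50 after the start) were matched for 9 of the 10 genes. The windows of this lectin pair are shown because the genes lie side by side and moved together. Capitals mark GAGGAA, the core bound by the myeloid factor PU.1, on either strand, so that TTCCTC is the same motif read on the other strand. The Clec4d window is chr6:123261857-123262156 on the plus strand and the Clec4e window is chr6:123289822-123290121 on the minus strand.
Clec4d: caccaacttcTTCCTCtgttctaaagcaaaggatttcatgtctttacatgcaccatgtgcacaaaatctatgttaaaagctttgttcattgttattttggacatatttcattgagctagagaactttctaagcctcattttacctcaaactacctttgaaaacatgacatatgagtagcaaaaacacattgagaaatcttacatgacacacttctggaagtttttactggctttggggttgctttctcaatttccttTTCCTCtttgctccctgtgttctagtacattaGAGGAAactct
Clec4e: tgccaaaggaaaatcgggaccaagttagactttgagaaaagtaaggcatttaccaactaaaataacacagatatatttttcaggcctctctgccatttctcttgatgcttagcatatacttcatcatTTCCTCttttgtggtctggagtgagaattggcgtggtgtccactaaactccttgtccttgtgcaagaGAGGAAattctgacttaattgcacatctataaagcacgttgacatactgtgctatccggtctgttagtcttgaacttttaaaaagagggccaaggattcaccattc
The Clec4d window held 3 matches, which began at -240, 7 and 39 bases from the start site, and the Clec4e window held 2, at -123 and -56. GAGGAA was found in the windows of 6 of the 9 genes (Clec4d, Clec4e, F13a1, Fcgr1, Itgam and Trem1). Counted by window this was 7 of 10, both F13a1 windows among them, against 28.3% of all 32851 windows of this length. Fcgr1 and Trem1 carried it although neither passed the test at MCT 330 against control, and a match describes letters in a window, not binding.

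None of the tested lectin genes next to the pair was called higher. In chromosomal order the tested neighbours on 1 side were Clec4a4, Clec4b1, Clec4b2 and Clec4n (names and order from RefSeq, GRCm38.p6; values given after they were seen). Clec4n (Dectin-2), the nearest, differed from control by 0.36 (adjusted p = 0.224) at MCT 330. Clec4a4 was called lower, with a difference of -1.78 (adjusted p = 0.0161), a call lost with normexp (-0.32, adjusted p = 0.0946), and Clec4b1 differed by -0.78 (adjusted p = 0.0545). Clec4b2 was not well above background on any control or MCT 330 array.

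**Figure D2:**
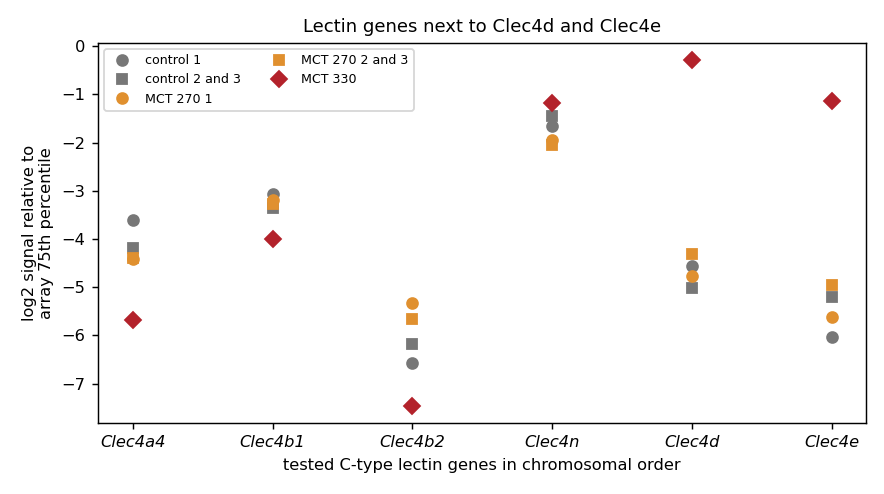
Log2 signal relative to the 75th percentile of the array (vertical axis) for the tested lectin genes in chromosomal order, with 1 point per sample. The MCT 330 point stands above the other 4 samples at Clec4d (-0.29) and Clec4e (-1.13), and below them at Clec4a4 (-5.68). Levels of different genes are not comparable.

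Trem1, which amplifies inflammatory signals in myeloid cells, passed in no comparison. Its levels were -0.81, -1.03 and -1.07 on the 3 control arrays, -0.91, -0.79 and -0.78 on the 3 MCT 270 arrays and -0.50, -0.60 and -0.57 on the 3 MCT 330 arrays. The MCT 330 arrays were highest, and control and MCT 270 arrays overlapped. The difference at MCT 330 was 0.37 ± 0.21 (adjusted p = 0.234), and at MCT 270 it was 0.08 (adjusted p = 0.834). Trem3, a related receptor, was not well above background on any control array and was at least 3.34-fold higher at MCT 330 (adjusted p = 0.0152; normexp difference 0.85). Of the 14 tested genes for immunoreceptor-coupled signalling, 5 rose and 1 fell at MCT 330, with a median difference of 0.47. The kinase Syk rose by 0.78 ± 0.19 (adjusted p = 0.0358) and Bcl10, which relays the signal to NF-kB, by 1.11 ± 0.23 (adjusted p = 0.0265). Tyrobp, the Trem1 adaptor, rose by 1.04 (adjusted p = 0.0365), while Fcer1g, the adaptor of both lectins, differed by 0.64 (adjusted p = 0.0555); these 2 adaptors were named after their values were seen. Card9, the scaffold between Syk and Bcl10, fell, with a difference of -1.82 ± 0.20 (adjusted p = 0.00917), which was -0.49 with normexp (adjusted p = 0.0378). The calls of Syk, Bcl10 and Tyrobp were lost when either MCT 270 sample was left out (adjusted p = 0.0603 to 0.101) or when dim probes were not filtered (0.0865, 0.0687 and 0.0856), and that of Syk also without either control sample (adjusted p = 0.0544 and 0.0563).

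Cd14, the lipopolysaccharide co-receptor of myeloid cells, rose at MCT 330. Its levels were -1.03, -1.25 and -1.27 on the 3 control arrays, -1.76, -1.62 and -1.61 on the 3 MCT 270 arrays and 2.26, 2.26 and 2.20 on the 3 MCT 330 arrays. The 3 groups did not overlap: MCT 270 arrays were the lowest and MCT 330 arrays the highest. MCT 330 exceeded control by 3.39 ± 0.21 (adjusted p = 0.00883), a 10.5-fold difference. MCT 270 differed from control by -0.54, which did not pass (adjusted p = 0.212). Around Cd14, 5 of the 11 tested genes of the lipopolysaccharide pathway rose at MCT 330 and none fell, with a median difference of 0.52. Tlr2, a receptor for bacterial lipoproteins, rose by 3.45 ± 0.38 (adjusted p = 0.00922), and Irak3, an inhibitor of the pathway, by 2.23 ± 0.20 (adjusted p = 0.00883). Ly96, the partner of Tlr4, rose by 1.02 ± 0.21 (adjusted p = 0.0262) and the kinase Irak4 by 1.04 ± 0.22 (adjusted p = 0.0270). Both calls were lost without a filter on dim probes (adjusted p = 0.0687 and 0.0697) and without either MCT 270 sample (0.0617 and 0.0658), that of Ly96 also without control replicate 1 (0.0517), and that of Irak4 with the mean of its probes (0.0811). Tlr4 itself differed by -0.49 (adjusted p = 0.194; named after its value was seen).

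Itgam was called higher at MCT 330, but its probes disagreed. Its brightest probe had levels of 0.68, 0.14 and 0.14 on the 3 control arrays, 0.90, 0.98 and 0.99 on the 3 MCT 270 arrays and 1.71, 1.69 and 1.66 on the 3 MCT 330 arrays. On this probe the control arrays were lowest and the MCT 330 arrays highest, with no overlap between groups, and the difference between MCT 330 and control was 1.28 ± 0.29 (adjusted p = 0.0304). A second probe for the same transcript record was also higher at MCT 330, by 0.83, whereas the probe A_55_P1977926, for another transcript record, was lower, at -1.18. With the mean of the 3 probes the difference was 0.31 (adjusted p = 0.251), and leaving out either MCT 270 sample raised the adjusted p to 0.0618, and without a filter on dim probes it was 0.0746. Of the 10 tested leukocyte integrins and ligands, 5 rose and none fell at MCT 330 (median 0.97). Icam1, a ligand of Mac-1, rose by 3.50 ± 0.38 (adjusted p = 0.00917), Itga4, the alpha chain of the Vcam1 receptor, by 1.91 ± 0.19 (adjusted p = 0.00883), its partner Itgb1 by 1.19 ± 0.19 (adjusted p = 0.0150), and Itgax, the alpha chain of a related integrin, by 1.78 ± 0.28 (adjusted p = 0.0148). Itgb2, the partner chain of Itgam, differed by 0.76 (adjusted p = 0.0661; named after its value was seen).

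**Figure D3:**
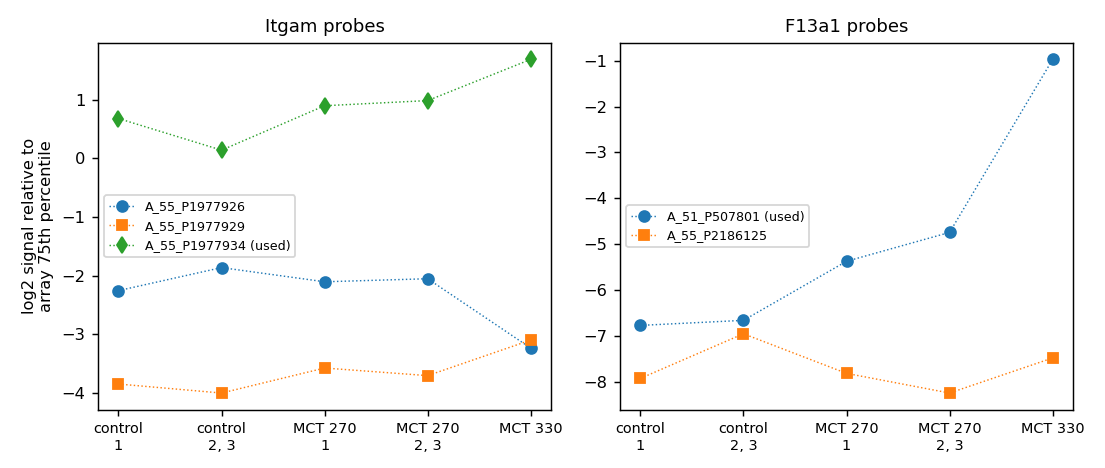
Log2 signal relative to the 75th percentile of the array (vertical axis) in the 5 samples for each probe of Itgam (left) and F13a1 (right). The used Itgam probe is highest at MCT 330 (1.69) and the probe A_55_P1977926 is lowest there (-3.24); the unused F13a1 probe stays near background in every sample.

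Fcgr1 showed the same order of groups as Cd14. Its levels were -2.40, -2.46 and -2.48 on the 3 control arrays, -3.07, -2.96 and -3.08 on the 3 MCT 270 arrays and -2.27, -2.15 and -2.15 on the 3 MCT 330 arrays. MCT 270 arrays were lowest and MCT 330 arrays highest, and no groups overlapped. Neither dose passed against control: the difference was 0.24 ± 0.19 at MCT 330 (adjusted p = 0.360) and -0.61 at MCT 270 (adjusted p = 0.153). Between the doses it was 0.85 higher at MCT 330 (adjusted p = 0.0390), a call lost without either MCT 270 sample (adjusted p = 0.194 and 0.153) and without a filter on dim probes (0.0989). Of the 4 other Fc gamma and neonatal Fc receptors tested, none rose and 2 fell at MCT 330: Fcgr2b, the inhibitory receptor, at -1.09 ± 0.21 (adjusted p = 0.0226), and Fcgrt, the neonatal receptor that recycles IgG, at -0.76 ± 0.20 (adjusted p = 0.0429). Both calls were lost without either MCT 270 sample (Fcgr2b adjusted p = 0.0601, Fcgrt 0.112) and without a filter on dim probes (0.0617 and 0.0983). That of Fcgrt was also lost without control replicate 1 (0.0741) and with quantile normalization (-0.71, adjusted p = 0.0540).

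Chil3 (Ym1), a secreted chitinase-like protein of activated mouse macrophages and neutrophils, showed stepwise levels. Its levels were -2.59, -2.12 and -2.21 on the 3 control arrays, -1.36, -0.57 and -0.67 on the 3 MCT 270 arrays and 1.76, 1.56 and 1.66 on the 3 MCT 330 arrays. The groups did not overlap and their order was control, MCT 270, MCT 330. MCT 330 exceeded control by 4.04 ± 0.39 (adjusted p = 0.00883), a 16.5-fold difference, and MCT 270 exceeded control by 1.39, which did not pass (adjusted p = 0.138). In its family, Chil1 was called higher, at 4.64 ± 0.92 (adjusted p = 0.0237), with levels of -6.73 and -4.46 in the control samples, where 1 of 3 arrays was well above background. With normexp the Chil1 difference was 2.17, and without a filter on dim probes the call was lost (adjusted p = 0.0610). Chit1, an active chitinase of macrophages, was called lower, at -1.76 ± 0.29 (adjusted p = 0.0160), a call lost with normexp (-0.36, adjusted p = 0.0749), and the other 3 tested members did not pass.

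F13a1, the catalytic subunit of the transglutaminase that cross-links fibrin, was also stepwise. Its levels were -6.76, -6.75 and -6.56 on the 3 control arrays, -5.37, -4.68 and -4.80 on the 3 MCT 270 arrays and -0.94, -1.004 and -0.97 on the 3 MCT 330 arrays. The groups did not overlap. The gene was well above background on no control array and on 2 of 3 MCT 270 arrays, so the increase is given as at least 21.1-fold at MCT 330 (fitted difference 5.73 ± 0.31, adjusted p = 0.00883) and at least 1.24-fold at MCT 270 (1.65, adjusted p = 0.0980). The MCT 270 difference did not pass. With normexp the differences were 2.37 at MCT 330 and 0.16 at MCT 270, both less than these bounds. A second F13a1 probe was not well above background on any of the 9 arrays. Among other transglutaminase genes, Tgm1 rose by 3.19 ± 0.28 (adjusted p = 0.00883) and Tgm2, a broadly expressed tissue enzyme, by 2.67 ± 0.37 (adjusted p = 0.0120). F13b, the hepatocyte-made carrier subunit of the same plasma complex, fell, at -1.41 ± 0.20 (adjusted p = 0.0123), so the 2 subunits moved in opposite directions.

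Ch25h, which hydroxylates the side chain of cholesterol, rose at MCT 330. Its levels were -7.53, -6.53 and -6.88 on the 3 control arrays, -4.13, -3.12 and -3.16 on the 3 MCT 270 arrays and -0.81, -0.80 and -0.84 on the 3 MCT 330 arrays. No control array was well above background, MCT 270 arrays were all above them, and MCT 330 arrays were higher again. The increase is given as at least 23.5-fold at MCT 330 (6.30 ± 0.54, adjusted p = 0.00883) and at least 3.33-fold at MCT 270 (3.48, adjusted p = 0.0924), the second of which did not pass. With normexp the differences were 2.74 at MCT 330 and 0.74 at MCT 270, both less than these bounds. The RefSeq window of Ch25h, chr19:34475099-34475398 on the minus strand, is shown because it was the only one of the 9 genes' windows with a cAMP response element.
Ch25h: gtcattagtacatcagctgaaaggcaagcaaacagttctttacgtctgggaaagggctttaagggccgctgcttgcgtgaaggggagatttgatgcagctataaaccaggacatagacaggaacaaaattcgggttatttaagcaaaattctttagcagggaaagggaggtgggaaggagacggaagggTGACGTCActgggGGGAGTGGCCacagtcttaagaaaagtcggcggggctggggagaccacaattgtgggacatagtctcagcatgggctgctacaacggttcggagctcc
Capitals mark TGACGTCA, a cAMP response element that began at -61 bases from the start site, and a loose NF-kB-like pattern (GGGA, any 4 bases, then CC) that began at -48, both searched on both strands, and the matches do not overlap. Because any 4 bases were allowed, a match need not be an NF-kB site. TGACGTCA was found in 1.79% of all windows and the loose NF-kB-like pattern in 20.7%, and the Chil3 window also held that pattern. Of 14 tested genes for oxysterol and cholesterol handling, 1 rose and 3 fell at MCT 330 (median -0.37). Abca1, a cholesterol exporter, rose by 0.69 ± 0.19 (adjusted p = 0.0477), a call lost without either MCT 270 sample (adjusted p = 0.131) and without control replicate 1 (adjusted p = 0.0719) or control replicates 2 and 3 (adjusted p = 0.0680), without MCT 330 replicate 2 (0.0501) and without a filter on dim probes (0.107). Hsd3b7, a bile acid enzyme that also acts on oxysterols, fell, at -1.57 ± 0.21 (adjusted p = 0.0115), as did the sterol hydroxylase Cyp27a1, at -1.68 ± 0.34 (adjusted p = 0.0238, and 0.0622 without a filter on dim probes).

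Gpnmb, a glycoprotein of lysosome-rich macrophages, rose at MCT 330. Its levels were -6.00, -7.15 and -6.90 on the 3 control arrays, -5.66, -6.08 and -6.03 on the 3 MCT 270 arrays and -2.84, -2.84 and -2.88 on the 3 MCT 330 arrays. The MCT 330 arrays were highest, and control and MCT 270 arrays overlapped. No control array and 1 of 3 MCT 270 arrays were well above background, and the increase at MCT 330 over control is given as at least 5.71-fold (3.66 ± 0.48, adjusted p = 0.0109). With normexp this difference was 1.27, less than the bound. The RefSeq window of Gpnmb, chr6:49036268-49036567 on the plus strand, is shown as the only one of the 9 genes' windows with an AP-1 motif. Capitals mark TGANTCA, searched on both strands, which began at 8 bases from the start site and was found in 7.81% of all windows.
Gpnmb: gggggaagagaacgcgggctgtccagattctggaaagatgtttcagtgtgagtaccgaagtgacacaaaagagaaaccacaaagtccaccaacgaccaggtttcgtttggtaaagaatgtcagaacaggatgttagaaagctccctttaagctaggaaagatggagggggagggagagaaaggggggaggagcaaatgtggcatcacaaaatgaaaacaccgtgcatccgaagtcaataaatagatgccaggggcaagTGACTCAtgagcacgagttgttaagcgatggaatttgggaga
Of 15 tested lysosomal and lipid-associated macrophage genes, 1 rose and 1 fell at MCT 330, with a median of -0.04. Lgals3, a galectin, rose by 1.70 ± 0.28 (adjusted p = 0.0160) and Fabp5, a fatty acid carrier, fell, at -1.45 ± 0.32 (adjusted p = 0.0291), a call lost without a filter on dim probes (0.0718) and without either MCT 270 sample (0.0540).

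Between the doses, 8 of the 10 genes were higher at MCT 330 than at MCT 270, against 4.96% of all genes called higher (21.9% in either direction, 16.9% lower), with a median difference of 2.91 (all genes: -0.23). Itgam (0.75, adjusted p = 0.128) and Trem1 (0.29, adjusted p = 0.372) did not pass. The differences were 4.25 for Clec4d, 4.14 for Clec4e and 4.08 for F13a1 (adjusted p = 0.0206 each). Cd14 was 3.93 higher (adjusted p = 0.0206), and Gpnmb (3.00, adjusted p = 0.0235), Ch25h (2.82, adjusted p = 0.0313) and Chil3 (2.65, adjusted p = 0.0224) also passed. No gene of any kind passed when either MCT 270 replicate 1 or MCT 270 replicates 2 and 3 were left out, nor did any when dim probes were not filtered (adjusted p = 0.0729 to 0.0989 for these 8 genes), and Gpnmb did not pass with quantile normalization (adjusted p = 0.0618). Clec4e and F13a1 were well above background on 2 of 3 MCT 270 arrays and Gpnmb on 1, so these genes entered the test only through MCT 330, where they were high. With normexp the differences between doses were 2.74 for Clec4d, 2.17 for Clec4e, 2.21 for F13a1 and 1.19 for Gpnmb, and these 4 still passed. All 10 genes were higher on every MCT 330 array than on every MCT 270 array, as were 27.3% of all genes. The comparisons of each dose with control share the control samples.

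**Figure D4:**
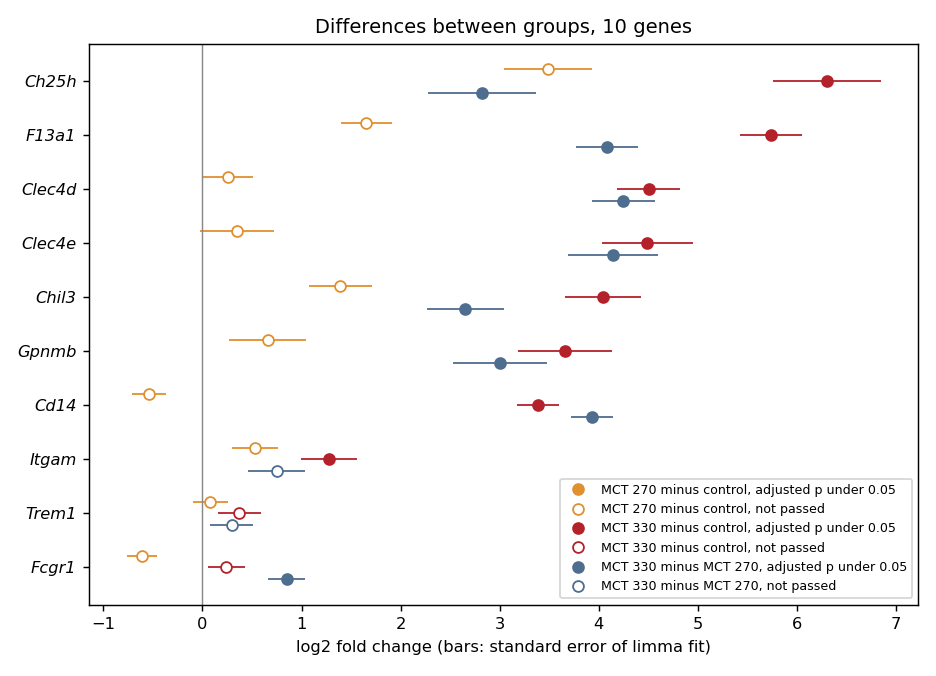
Log2 fold change (horizontal axis) of each of the 10 genes in the 3 comparisons, with the standard error of the limma fit as bars; filled points passed an adjusted p of 0.05. Points of the 4 genes dim on all control arrays, such as Ch25h at 6.30 for MCT 330 minus control, are fitted values near background, and no MCT 270 minus control point is filled.

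At MCT 270 against control, 0 of the 10 genes passed, nor did any gene tested (lowest adjusted p = 0.0598 by limma), while 4613 genes had an unadjusted p under 0.05. At an unadjusted p under 0.05, 3 of the 10 were higher (Ch25h, F13a1 and Chil3), against 9.81% of all genes, and 2 were lower (Cd14 and Fcgr1), against 8.78%. Within the scan that held replicates 1 and 2 of both groups, an alternative added after seeing the data, the differences were 3.40 for Ch25h, 1.73 for F13a1 and 1.39 for Chil3, and none passed. With normexp correction Ch25h (0.74) and F13a1 (0.16) were smaller at this dose. On every MCT 270 array, 4 of the 10 were higher than on every control array (Chil3, F13a1, Itgam and Ch25h; 23.1% of all genes were), and 2 were lower (Cd14 and Fcgr1; 25.2%). Clec4d differed by 0.25 (adjusted p = 0.632) and Clec4e by 0.35 (adjusted p = 0.655) at this dose.

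The genes whose centred profile over the 5 samples lay nearest the mean profile of the 10 were Tnfaip3 (root mean square distance 0.123 on the log2 scale), Haus8 (0.131), Ero1a (0.146), Tnfrsf10b (0.154), Tlr2 (0.157) and Tuft1 (0.162). Among the 10 genes themselves, Chil3 (0.375) and Gpnmb (0.408) lay nearest that mean and Ch25h (1.42), dim on all control arrays, farthest. Tnfaip3, an inhibitor of NF-kB, had levels of -1.67 and -1.80 in the control samples, -1.04 and -0.67 in the MCT 270 samples and 1.99 in the MCT 330 sample. These distances rest on 5 samples from 9 arrays and carry no test.

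Other genes of monocytes moved in both directions at MCT 330: of 18 tested, 9 rose and 3 fell, with a median of 1.42 (Ly6c2, which defines inflammatory monocytes, was not on the array). Those that fell were Csf1r, Adgre1 (-0.88) and Aif1 (-0.73). Adgre1 also stands in the Kupffer cell list, and Adgre1 and Aif1 were named after their values were seen. Emilin2, an extracellular matrix glycoprotein, rose by 2.70 ± 0.25 (adjusted p = 0.00883), Klf4, a monocyte transcription factor, by 2.24 ± 0.23 (adjusted p = 0.00892) and Plac8 by 1.65 ± 0.22 (adjusted p = 0.0114). Ccr2, the receptor for Ccl2, rose by 2.74 (adjusted p = 0.0181; 1.23 with normexp, and adjusted p = 0.0517 without a filter on dim probes), whereas Csf1r, the receptor for Csf1, fell, at -0.81 (adjusted p = 0.0323); both were named after their values were seen. The Csf1r call was lost without control replicate 1 (adjusted p = 0.0519), without either MCT 270 sample (0.0946), without a filter on dim probes (0.0806), with quantile normalization (-0.64, adjusted p = 0.0525) and with the mean of its probes (-0.57, adjusted p = 0.132). Of 7 tested attractants and growth factors, 4 rose and 1 fell, with a median of 2.23 (1.89 with dim genes at their bound). The median of 2.23 is the value of Ccl12, which did not pass and whose probe met the filter only at MCT 330. Ccl12 was named after its value was seen. Ccl7 was not well above background on any control array and was at least 37.4-fold higher at MCT 330 (7.12 ± 0.70, adjusted p = 0.00883; 3.06 with normexp), and Ccl2 rose by 5.37 ± 0.59 (adjusted p = 0.00920). Csf1 rose by 1.89 ± 0.30 (adjusted p = 0.0146; 1.18 with the mean of its probes) and Il34, the other ligand of Csf1r, fell, at -1.94 ± 0.34 (adjusted p = 0.0180; -1.08 with normexp, and adjusted p = 0.0517 without a filter on dim probes).

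Markers of other cell types also moved, and some genes, such as Ccr2, Lgals3 and Itgax, stand in more than 1 list. For comparison, 9.48% of all genes tested were called higher and 23.9% lower at MCT 330 against control. The counts of dendritic cell and lymphocyte markers called lower lay near that share. Neutrophils carry several of the 10 genes, among them Clec4d, Clec4e, Trem1, Itgam and Chil3. Of 15 tested neutrophil markers, 7 rose and 1 fell at MCT 330 (median 1.62, or 0.37 with dim genes at their bound; Ly6g was not on the array), with Retnlg at 5.68 ± 0.34 (3.78 with normexp), S100a8 at 5.81 ± 0.49 and Stfa2l1 at least 21.1-fold higher (normexp difference 2.41). Of these 15 markers, 5 were dim on all control arrays. The probes of Mmp8, Mmp9, Cxcr2 and Ngp met the probe filter only at MCT 330, where they were higher. The filter thus favoured a higher call for them, and Mmp8, Mmp9 and Cxcr2 are among the 7 that rose. The marker called lower was Mpo, at -2.19, which was not well above background on any MCT 330 array. Of those that did not pass, Elane (-0.87), Camp (-0.82), Cd177 (-0.51) and Csf3r (-0.29) were lower. Ngp (1.62), Ltf (0.37) and Fpr1 (0.02) were higher without passing. Mpo, Mmp8, Cxcr2 and these markers were named after their values were seen. Mmp9, well above background on MCT 330 arrays only, was at least 3.20-fold higher than control (normexp difference 0.86). The summed neutrophil level was 18.5 and 20.0 in the control samples, 16.8 and 15.8 in the MCT 270 samples and 46.3 in the MCT 330 sample. Its brightest probes were those of Csf3r and Elane in the control samples and that of S100a9 in the MCT 330 sample. The part of neutrophils in the differences of the 10 genes was not tested. Kupffer cell markers ran the other way, with 0 rising and 6 of 12 falling, Id3 among them: Vsig4, a complement receptor, at -2.64 ± 0.22, the lectin Clec4f at -2.53 ± 0.25 (adjusted p = 0.00883 each) and Cd5l at -1.37 ± 0.21 (adjusted p = 0.0136). Id3 was listed lower too (-3.14), but its level was -8.11 on MCT 330 replicate 1 alone and the difference was 0.15 without that array. The summed level of the Kupffer cell list was 70.5 and 70.9 in the control samples, 53.8 and 61.4 in the MCT 270 samples and 42.0 in the MCT 330 sample. Its brightest probes were those of Slc40a1 (difference -0.27) and Nr1h3 (-0.43), neither of which passed. Of 7 dendritic cell markers 1 rose (Itgax) and 2 fell (Clec9a at -1.84 and Zbtb46 at -1.32), and of 12 lymphocyte markers 2 rose (Ms4a1, at least 3.73-fold, and Ncr1) and 3 fell, with Cd4 at -1.85 and Cd3e at -1.08. With normexp the differences were -0.52 for Clec9a, -0.62 for Zbtb46, 0.75 for Ms4a1 and 0.17 for Ncr1, whose call was lost (adjusted p = 0.266). Without a filter on dim probes the calls of Ncr1 (adjusted p = 0.0579) and Cd3e (0.0560) were lost, that of Cd3e also without either MCT 270 sample (0.0544), and with the mean of its probes that of Zbtb46 (0.398). Of 8 sinusoidal endothelial markers 7 fell (median -2.11).

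**Figure D5:**
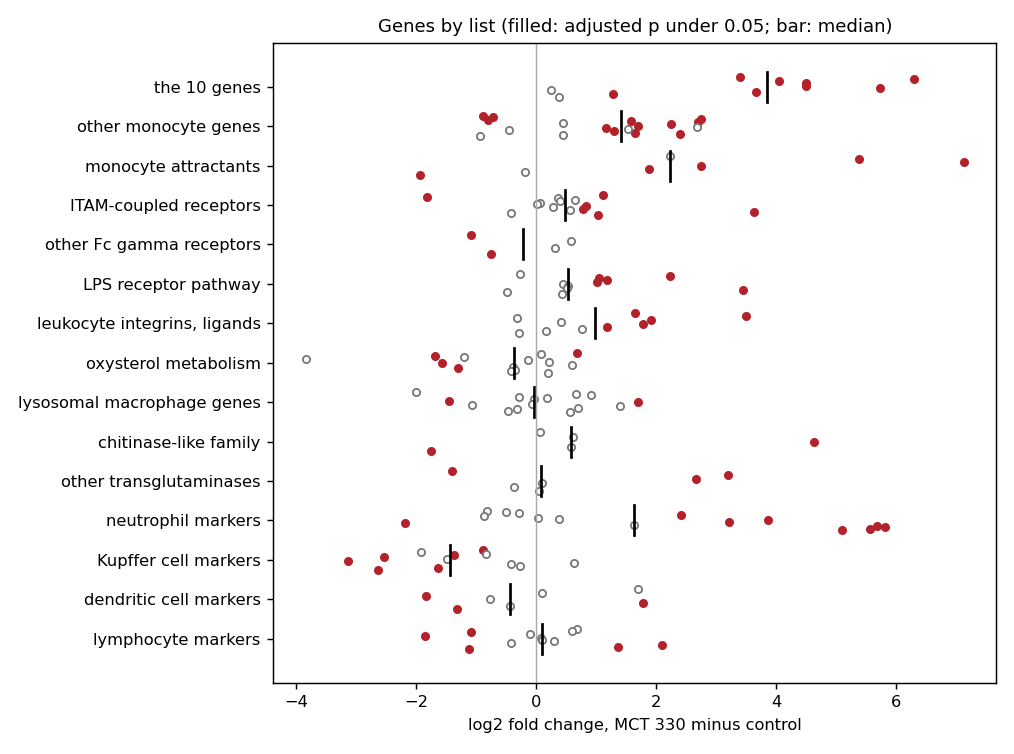
Log2 fold change of MCT 330 minus control (horizontal axis) for every tested gene of each list, with 1 point per gene, filled where the adjusted p was under 0.05, and a bar at the median of the list. The 10 genes have a median of 3.85 (3.72 with dim genes at their bound), the neutrophil markers 1.62 (0.37 with dim genes at their bound) and the Kupffer cell markers -1.43. The Kupffer cell list includes Id3, at -3.14 here but 0.15 without MCT 330 replicate 1.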

How the data were processed

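The authors deposited 1 text file per array with spot intensity values from Agilent Feature Extraction 11.0.1.1, background-subtracted and detrended per the file headers. Background and outlier flags in the deposited files are other values that marked spots. The deposited processed signal was converted to log2 here. Each of the 9 arrays was scaled to its 75th percentile, spots with outlier flags were dropped and repeated spots were averaged. A probe was tested when every array of some group had it well above background, and each gene was represented by its brightest probe. Among other named genes, the probes of Trem3, Ccl12, Mmp8, Mmp9, Cxcr2, Ngp and Ncr1 met this only at MCT 330, where they were higher. For them the filter favoured a higher call. Control spots (1377 of 44397) were dropped, and 21464 of 33258 systematic names matched a symbol. Groups were compared with limma 3.58.1 in R 4.3.3 (lmFit and eBayes over all 3 groups, Benjamini-Hochberg adjustment over 24819 genes). The script was tested on simulated data. Replicate numbers did not pair samples (correlations of deviations between -0.0339 and 0.0420). The normexp alternative used an offset of 50. Precision is limited by the number of arrays. The members and gene lists were chosen with earlier results of these data known. All 10 members were named; for each other list up to 4 genes with the lowest p among those passing at MCT 330 against control (the 2 with the lowest p where fewer than 2 passed), and the 6 genes nearest the mean member profile. Some genes that this rule names are not reported here. The miRNA arrays were not used here.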

Additional observations from a re-analysis of the deposited data

How the results depend on the processing

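Over 17 alternatives, 7 of the 10 genes (all called at MCT 330 against control except Itgam) kept that call, and the number called ranged from 7 to 8 when 1 sample was left out. Counting the 9 arrays as separate samples called 9552 genes at MCT 270, 18088 at MCT 330 against control and 16139 between doses, with 6 of the 10 genes called at MCT 270. Adding the replicate number as a block gave 9321, 17942 and 15971 with 7 of the 10, and scan day as a block 8774, 17685 and 15645 with 6. With MCT 330 replicate 1 as its own sample the counts were 1726, 13743 and 11230 with 3 of the 10 called at MCT 270. Normexp correction called 500 genes at MCT 270. Without a filter on dim probes 3639 genes were called at MCT 330 against control and 0 between doses, with 0 of the 10. Leaving out samples gave 4971 to 8709 genes (4971 to 8317 over single replicates) at MCT 330 against control and 0 to 7280 between doses (0 to 9 of the 10), and 0 at MCT 270. The share of higher calls at MCT 330 against control was 28.4%, 41.8% with quantile normalization and 48.4% with normexp, and between doses 22.7%, 38.4% and 48.8%; the median of all genes at MCT 330 against control was -0.25, -0.05 and -0.03. Normexp shrank dim genes: F13a1 to 2.37, Ch25h to 2.74, Clec4e to 2.14, Clec4d to 2.78 and Gpnmb to 1.27 at MCT 330 against control, and Ch25h to 0.74 and F13a1 to 0.16 at MCT 270. Clec4e at MCT 270 turned to -0.036 with normexp and ranged from -0.064 (without control replicate 1) to 0.68 when a replicate was left out, Trem1 at MCT 270 turned to -0.043 without control replicates 2 and 3, and Id3 at MCT 330 ranged from -4.80 to 0.15 (without MCT 330 replicate 1, where its level lay far from the other arrays). Gpnmb lost its call between doses with quantile normalization. The use of first scans only was chosen after seeing the data.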
